A study of Mus musculus with 12 samples.

Results

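Expression of 9 genes of vitamin A storage and retinoic acid signalling was examined in mouse primary hepatic stellate cells, the retinoid-storing pericytes of the liver. The genes were chosen by symbol, and all 9 were among the 12081 genes listed for the 12 poly(A)-selected RNA libraries. Cells of all groups came from livers of Hk2 fl/fl mice, in which Cre recombinase can delete the gene of hexokinase 2, a glycolytic enzyme, and were isolated by density gradient centrifugation. The LAC group received an adenovirus with Cre fused to eGFP, was cultured for 6 days and was given 10 mM lactate for 24 h. The KO group received the Cre virus and the same culture without added lactate. The ACT group was cultured for 6 days with an adenovirus expressing eGFP alone, and the QS group was freshly isolated, untreated cells taken as quiescent. Each group had 3 libraries. Whether a group's libraries represent different mice or different dishes is not in the labels; its p-values describe how libraries vary, which may be technical variation alone. Mouse age and the efficiency of transduction are not given in the sources used here.

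In stellate cells, retinol delivered to the liver is esterified by lecithin retinol acyltransferase, and the esters fill lipid droplets that are lost when the cells become myofibroblasts. Retinol leaves the liver on retinol-binding protein 4, which in liver is made mainly by hepatocytes. Retinol is oxidised reversibly to retinal, and retinal irreversibly to retinoic acid by Aldh1a enzymes. Retinoic acid binds the receptors RARα, RARβ and RARγ, which act on DNA as heterodimers with RXR proteins, and Cyp26 enzymes break it down. Rarb and Cyp26a1 are textbook targets that the receptors act on through direct repeats in their promoters.

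The promoters of those targets are shown first, because they carry the DNA sequence through which retinoic acid receptors are known to act. A DR5 element is a pair of receptor hexamers (each AGGTCA or AGTTCA or GGTTCA or GGGTCA) in the same direction with 5 bases between them. Both strands of the RefSeq promoter windows, from 250 bases before to 50 after each annotated start, were searched. DR5 was present in 32 of 32851 windows (0.0974%). Among the 18 windows of the 9 genes it was found in that of Rarb, and among the genes of the other retinoid lists in that of Cyp26a1. DR1 and DR2, the repeats with 1 and 2 bases between the hexamers, were in 0.222% and 0.268% of windows and in none of those of the 9 genes. In the sequences below, given 5′ to 3′ on the strand of the gene, capitals mark the DR5 match.
Rarb promoter: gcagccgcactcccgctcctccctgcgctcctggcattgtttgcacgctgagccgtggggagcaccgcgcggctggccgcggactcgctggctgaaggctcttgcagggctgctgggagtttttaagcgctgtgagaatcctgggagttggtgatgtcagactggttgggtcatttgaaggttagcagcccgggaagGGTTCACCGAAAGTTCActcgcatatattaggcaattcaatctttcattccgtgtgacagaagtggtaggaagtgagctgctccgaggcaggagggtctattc
Cyp26a1 promoter: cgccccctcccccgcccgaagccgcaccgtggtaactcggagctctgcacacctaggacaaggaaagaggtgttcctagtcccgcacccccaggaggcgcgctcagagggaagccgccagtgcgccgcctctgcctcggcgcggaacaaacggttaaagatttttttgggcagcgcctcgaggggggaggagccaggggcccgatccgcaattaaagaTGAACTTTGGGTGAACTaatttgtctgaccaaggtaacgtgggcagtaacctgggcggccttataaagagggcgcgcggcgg
The Rarb window is chr14:16575427-16575726 (GRCm38.p6, minus strand), and its match lies 53 to 37 bases before the start. It is an internal start of the annotated gene, near which 3 of 7 GENCODE transcripts of Rarb begin. The Cyp26a1 window is chr19:37697558-37697857 (plus strand), with the match on the opposite strand, 32 to 16 bases before the start. Read on its own strand, the Cyp26a1 match shares 15 of 17 bases with the Rarb match. A match describes the letters and was not tested for binding.

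Values are read counts normalised to library size by the authors (CPM). Fold values and percentages given below are ratios of mean CPM, whereas a log2 fold change was fitted to log2(CPM + 1). Depth, estimated as reads in the listed genes, ranged from 8.67 to 11.0 M (megareads) in LAC, 5.85 to 11.6 M in KO, 11.4 to 14.0 M in ACT and 4.35 to 10.1 M in QS, and 3 reads corresponded to 0.212 CPM in the deepest library and 0.720 CPM in the shallowest. The targeted gene was low where Cre was given: Hk2 was 18.7 to 19.7 CPM in LAC, 10.7 to 13.7 CPM in KO, 181 to 182 CPM in ACT and 66.7 to 73.5 CPM in QS. Of 20 markers of quiescent stellate cells 19 were measured, with a summed level of 2516 to 2592 CPM in LAC, 2640.0 to 2879 CPM in KO, 1599 to 1622 CPM in ACT and 7091 to 7298 CPM in QS. The 3 highest of them went different ways. Reln had mean levels of 305 CPM in LAC, 412 CPM in KO, 107 CPM in ACT and 1375 CPM in QS. Dcn was lowest in KO, with 411, 255, 366 and 1977 CPM in LAC, KO, ACT and QS. Nes was highest in KO and lowest in QS, with 899, 1209, 461 and 148 CPM in that order. The higher quiescent sum in KO than in LAC rested on Nes. The libraries also held RNA of other liver cells, in amounts that differed between groups. The summed level of 25 hepatocyte markers was 378 to 395 CPM in LAC, 694 to 748 CPM in KO, 482 to 497 CPM in ACT and 3219 to 3294 CPM in QS. Ass1 and Trf made up nearly all of it in LAC and most of it in ACT. Ass1 averaged 263, 233, 114 and 107 CPM in LAC, KO, ACT and QS, so it was not highest in QS. Trf averaged 121, 81.4, 305 and 449 CPM in that order. The summed level of 22 endothelial markers was 5803 to 6042, 10642 to 11866, 947 to 975 and 20879 to 21470 CPM in LAC, KO, ACT and QS, and that of 20 macrophage markers 4223 to 4281, 557 to 576, 16229 to 16640 and 7060 to 7157 CPM. In such bulk samples, fewer cells of a type and less RNA per cell cannot be told apart.

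In ACT against QS the storage gene Lrat, Rbp4 and 3 receptor genes fell, and Rarb and the 3 genes of retinal handling rose. Of the 9 genes, 4 rose and 5 fell in ACT against QS (limma, adjusted p under 0.05), where 38.0% of all genes rose and 35.5% fell (73.5% in either direction). The libraries of the groups did not overlap for any of the 9, nor for 76.3% of all genes. In KO against ACT 5 rose and 3 fell, against 36.0% and 26.3% of all genes (62.4% together), and 8 did not overlap, against 69.2% of all genes. In LAC against KO 4 rose and 1 fell, against 20.0% and 21.0% (41.0% together), and 5 did not overlap, against 52.2%. LAC differed from ACT in 7 of the genes, 4 higher and 3 lower, against 27.8% and 21.7% of all genes (49.5% together), and 8 did not overlap, against 62.8%. KO differed from QS in all 9, 3 higher and 6 lower, against 37.4% and 35.7% of all genes (73.0% together), and none of the 9 overlapped, against 72.5%. These shares show that calls were common throughout the table, so the counts are a description of the 9 genes and the sizes below carry the comparison. The median log2 fold change of the 9 genes was -0.71 in ACT against QS, 0.29 in KO against ACT, -0.05 in LAC against KO, -0.17 in LAC against ACT and -0.51 in KO against QS, beside 0.03, 0.07, -0.02, 0.03 and 0.02 for all genes. KO and ACT each serve in more than 1 comparison, so these share libraries.

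**Figure D1:**
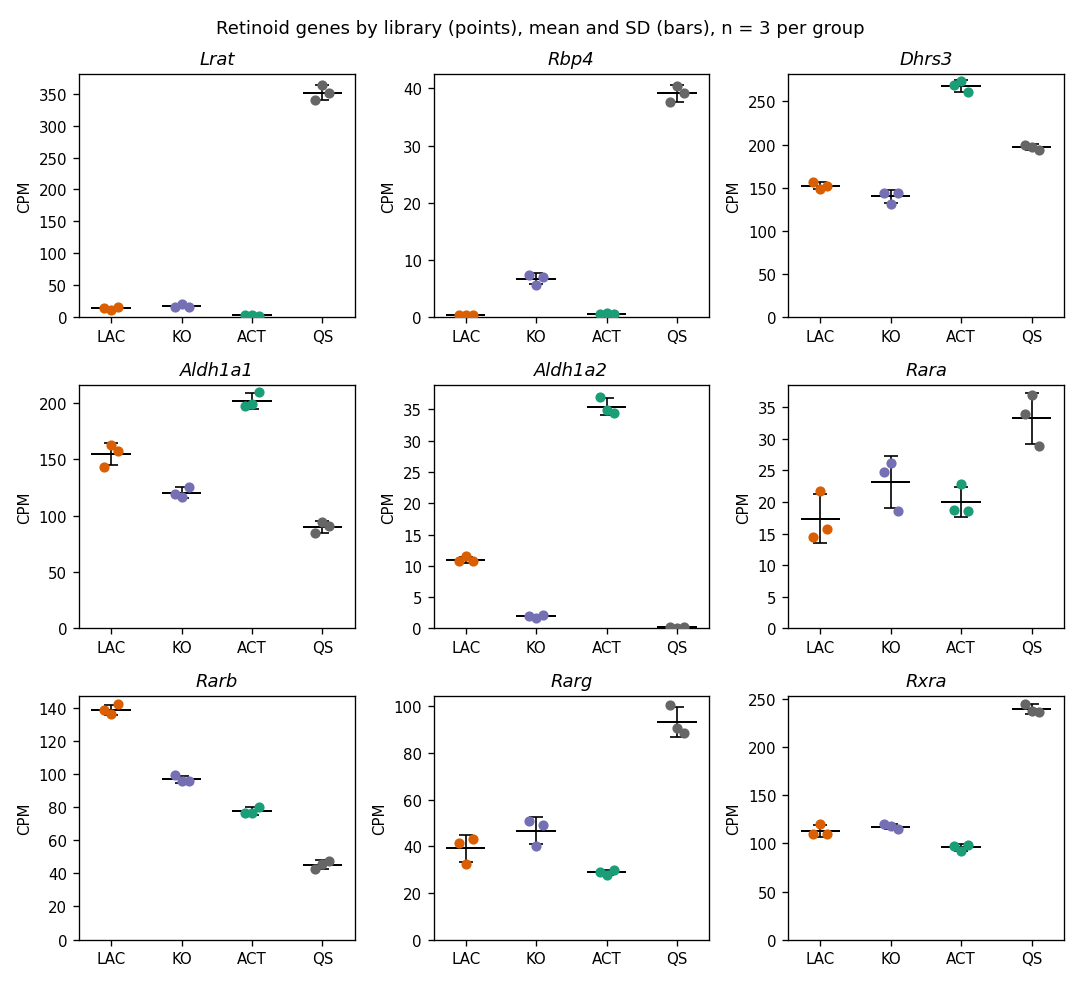
Level (CPM) of each of the 9 retinoid genes in every library, by group. Points are libraries and bars the mean and SD of 3 libraries. Lrat, Rbp4, Rara, Rarg and Rxra were highest in QS, Dhrs3, Aldh1a1 and Aldh1a2 in ACT, and Rarb in LAC.

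**Figure D2:**
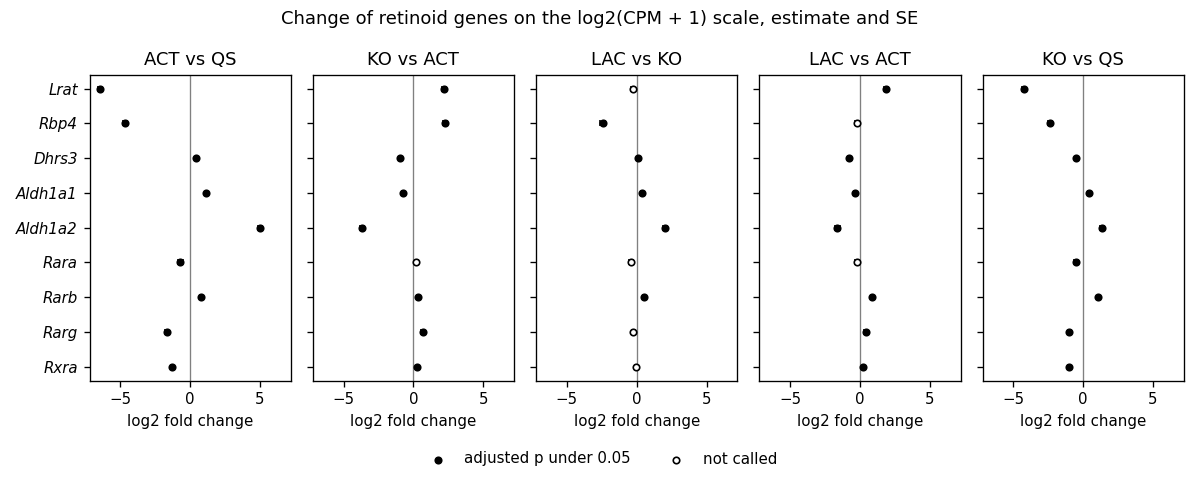
Log2 fold change of each gene on the log2(CPM + 1) scale in the 5 comparisons, with SE bars mostly hidden by the points. Filled points passed an adjusted p of 0.05 and open points did not. Of 9 genes, 9 were called in ACT vs QS, 8 in KO vs ACT, 5 in LAC vs KO, 7 in LAC vs ACT and 9 in KO vs QS.

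Lrat, the gene of the enzyme that esterifies retinol for storage (mm10, chromosome 3, 82892579 to 82903973, minus strand), was far lower in the cultured groups than in QS, and higher in both Cre groups than in ACT. It was 14.4, 11.8 and 15.8 CPM in the LAC libraries, 16.6, 19.9 and 15.5 CPM in KO, 3.75, 3.03 and 2.48 CPM in ACT, and 340.3, 363 and 352 CPM in QS. QS stood far above the cultured groups, ACT was lowest in every library, and LAC and KO overlapped. ACT thus held 0.877% of the QS mean (log2 fold change -6.44, SE 0.13, limma adjusted p = 1.00e-14). KO was 5.63-fold above ACT (log2 fold change 2.17, adjusted p = 3.18e-09) and LAC 4.53-fold above ACT (1.88, adjusted p = 2.90e-08), while KO held 4.94% of the QS level (-4.27, adjusted p = 1.28e-12). Between LAC and KO the difference was -0.29 with an SE of 0.13 and did not pass the test (adjusted p = 0.0882). The quiescent stellate and endothelial marker sums took the same order of groups from high to low, QS, KO, LAC, ACT. In the quiescent sum the step from KO to LAC rested on Nes, which was lowest in QS. Of the 19 quiescent markers 10 fell and 5 rose in LAC against KO. The part of either cell type in the level of Lrat was not tested.

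Rbp4, the gene of the retinol carrier of blood plasma (chromosome 19, 38116629 to 38125281, minus strand), was higher in KO than in ACT and lower in LAC than in KO. Its level was 0.355, 0.422 and 0.450 CPM in LAC, 7.44, 5.60 and 6.98 CPM in KO, 0.495, 0.780 and 0.510 CPM in ACT, and 37.6, 40.4 and 39.3 CPM in QS. The groups did not overlap, but the LAC level stands for 4 reads in each library and the ACT level for 7, 9 and 7 reads. KO was 11.2-fold above ACT (log2 fold change 2.26, SE 0.157, adjusted p = 1.65e-08), LAC held 6.13% of the KO level (-2.44, adjusted p = 2.54e-08) and ACT 1.52% of the QS level (-4.66, adjusted p = 2.91e-12). KO held 17.1% of the QS level (-2.39, adjusted p = 6.11e-09). LAC against ACT did not pass the test (-0.17, adjusted p = 0.391). On the log scale these changes rest on the pseudocount: with 0.1 and 5 CPM added instead of 1, the KO against ACT value was 3.30 and 1.06 and the LAC against KO value -3.73 and -1.11. Hepatocyte markers moved along the same groups. Of 25, 23 rose in KO against ACT and 23 fell in LAC against KO, with 9 of them at 0 in all LAC libraries (Apoa2, Apoc3, Serpina1a, Fga, Ahsg, Cps1, Cyp2e1, Hnf4a and Rgn). Alb, the gene of albumin, averaged 0.601 CPM in LAC, 157 CPM in KO, 10.6 CPM in ACT and 1128 CPM in QS. How much of Rbp4 came from hepatocyte RNA was not tested.

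Dhrs3, which encodes an enzyme that reduces retinal back to retinol and is itself a known retinoic acid target (chromosome 4, 144892827 to 144928209, plus strand), was highest in ACT and lowest in KO. The libraries had 157, 148 and 152 CPM in LAC, 144, 131 and 144 CPM in KO, 269, 274 and 260.4 CPM in ACT, and 200.0, 197 and 193 CPM in QS. All 4 groups were separate, with both Cre groups below QS. The macrophage marker sum had the same order from high to low, ACT, QS, LAC, KO, and its part in the level of Dhrs3 was not tested. Dhrs3 rose 1.36-fold in ACT against QS (log2 fold change 0.44, SE 0.0429, adjusted p = 3.68e-07) and fell to 52.2% of the ACT level in KO (-0.93, adjusted p = 1.58e-10). LAC held 56.9% of the ACT level (-0.81, adjusted p = 1.59e-09) and KO 71.1% of the QS level (-0.49, adjusted p = 1.35e-07). The rise in LAC against KO was small, 0.12 (adjusted p = 0.0336), and was not called in a fit of those groups alone (adjusted p = 0.0769), with an equal total per library (0.0544), with quantile normalization (0.0570), without the trend in the moderation (0.0845), or without KO replicate 2 (0.147), LAC replicate 1 (0.121) or LAC replicate 3 (0.0741).

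The Aldh1a genes, which encode enzymes that make retinoic acid from retinal, were both highest in ACT, at very different amplitude. Aldh1a1 (chromosome 19, 20492715 to 20643465, plus strand) was 143, 163 and 157 CPM in LAC, 119, 117 and 126 CPM in KO, 197, 199 and 209.7 CPM in ACT, and 84.3, 94.3 and 90.7 CPM in QS. Aldh1a2 (chromosome 9, 71215789 to 71296243, plus strand) was 10.7, 11.5 and 10.7 CPM in LAC, 1.93, 1.65 and 2.14 CPM in KO, 37.1, 34.9 and 34.4 CPM in ACT, and 0.207, 0 and 0.209 CPM in QS, where those values stand for 2, 0 and 1 reads. For both genes the groups did not overlap and ran QS, KO, LAC, ACT from low to high. Marker sums of activated stellate cells and portal fibroblasts had that order as well. The sum of 13 activated stellate markers was 14656 to 15298 CPM in LAC, 8441 to 9081 CPM in KO, 23058 to 23163 CPM in ACT and 872 to 907 CPM in QS, and that of 4 measured of 11 portal fibroblast markers 660 to 680.2 CPM in LAC, 347 to 359 CPM in KO, 1033 to 1063 CPM in ACT and 18.5 to 22.7 CPM in QS. In the cultured groups the portal fibroblast sum rested on Fbln2, with means of 642, 340, 958 and 2.82 CPM in LAC, KO, ACT and QS. Of its 4 markers 1 rose and 2 fell in KO against QS. Of the 13 activated stellate markers 4 were higher and 9 lower in LAC against ACT, and Tnc was highest in LAC. The part of these cells in the levels of Aldh1a1 and Aldh1a2 was not tested. Aldh1a1 in ACT was 2.25-fold the QS level (log2 fold change 1.16, SE 0.0563, adjusted p = 1.64e-10), in KO 59.7% of the ACT level (-0.74, adjusted p = 4.53e-08), and in LAC 1.28-fold the KO level (0.36, adjusted p = 1.86e-04) and 76.6% of the ACT level (-0.38, adjusted p = 5.88e-05). In KO it was 1.34-fold the QS level (0.42, adjusted p = 1.13e-05).

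Aldh1a2 was the member with the largest change in KO against ACT and the largest rise in LAC against KO on the log2(CPM + 1) scale. KO held 5.37% of the ACT level (log2 fold change -3.65, SE 0.145, adjusted p = 3.16e-11), and LAC was 5.76-fold above KO (2.05, adjusted p = 6.79e-08) but still at 31.0% of ACT (-1.61, adjusted p = 4.69e-07). Against the 3 reads of all QS libraries together the ACT level was 220.3-fold higher, with a counting interval of 75.4 to 1068 (exact Poisson, 95% confidence, counting error only). The KO level was 11.8-fold higher, with an interval of 4.05 to 57.4 (log2 fold change 1.35, adjusted p = 1.18e-06, and 0.43 to 3.24 with a pseudocount of 5 or 0.1 CPM). The log2 fold change of ACT against QS was 5.01 (adjusted p = 5.30e-13) and ran from 2.98 to 7.39 with a pseudocount of 5 or 0.1 CPM, and that of LAC against KO from 1.21 to 2.47. Wt1, a mesothelial gene, was likewise highest in ACT and next in LAC, with means of 5.89 CPM in LAC, 0.896 CPM in KO, 79.8 CPM in ACT and 0.934 CPM in QS. Upk3b, Upk1b, Lrrn4 and Gpm6a of the mesothelial and cholangiocyte list were also highest in ACT. Their means were 58.4, 30.5, 44.7 and 19.6 CPM in ACT and 5.65, 1.34, 1.91 and 6.24 CPM in QS. Msln, Krt8, Cdh1, Gata4 and Podxl were highest in QS, and Krt18 and Krt19 in LAC. The 14 measured markers of the list as a whole had another order than Wt1. Their sums were 288 to 293 CPM in LAC, 363 to 367 CPM in KO, 307 to 330.4 CPM in ACT and 651 to 681 CPM in QS. The QS sum rested mostly on Gata4 and Podxl, at 234 and 349 CPM. In KO against ACT 5 members were higher and 6 lower. The part of mesothelial cells or cholangiocytes in the level of Aldh1a2 was likewise not tested.

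Among the receptors, Rarb rose in ACT against QS while Rara, Rarg and Rxra fell. Rarb (chromosome 14, 16430839 to 16819156, minus strand), the receptor gene whose promoter holds the DR5 match printed above, was 139, 136 and 142 CPM in LAC, 99.4, 95.6 and 96.0 CPM in KO, 76.5, 76.3 and 80.3 CPM in ACT, and 42.5, 45.7 and 47.6 CPM in QS. The groups formed separate steps, QS, ACT, KO, LAC from low to high, and Rarb was the single member with its highest level in LAC. It rose 1.72-fold in ACT against QS (log2 fold change 0.77, SE 0.0497, adjusted p = 4.27e-09), 1.25-fold in KO against ACT (0.32, adjusted p = 7.40e-05) and 1.43-fold in LAC against KO (0.52, adjusted p = 1.63e-06). LAC was 1.79-fold above ACT (0.83, adjusted p = 5.59e-09) and KO 2.14-fold above QS (1.08, adjusted p = 1.11e-10). For Rarb the LAC level lay farther from ACT than the KO level did, while for Aldh1a1 and Aldh1a2 it lay nearer. Tnc, among the 3 highest activated stellate markers, had the group order of Rarb, with means of 4506, 3531, 1480 and 23.5 CPM in LAC, KO, ACT and QS. Pdgfrb and Postn of that list did so too, but the sum of its 13 markers was highest in ACT. In LAC against ACT 4 of them were higher and 9 lower. The part of activated stellate cells in the level of Rarb was not tested.

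Rarg, which encodes RARγ (chromosome 15, 102234938 to 102257517, minus strand), was 41.6, 32.6 and 43.3 CPM in LAC, 50.8, 40.1 and 49.3 CPM in KO, 29.0, 27.6 and 29.7 CPM in ACT, and 100.7, 90.7 and 88.7 CPM in QS. ACT was lowest and QS highest without overlap, and LAC and KO overlapped. ACT held 30.8% of the QS level (log2 fold change -1.66, SE 0.107, adjusted p = 4.20e-09), KO was 1.63-fold above ACT (0.67, adjusted p = 8.45e-05), and LAC was 1.36-fold above ACT (0.42, adjusted p = 0.00476). KO held 50.1% of the QS level (-0.99, adjusted p = 1.38e-06). LAC against KO did not pass the test (-0.25, SE 0.107, adjusted p = 0.0763), but was called without KO replicate 2 (adjusted p = 0.0187) or LAC replicate 3 (0.0435). The endothelial marker sum and, with Nes, the quiescent stellate sum had the same order of groups as Rarg, and their part was not tested.

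Rxra, which encodes the shared partner RXRα (chromosome 2, 27676440 to 27762957, plus strand), was 109.9, 120.4 and 109.5 CPM in LAC, 119.8, 118 and 115 CPM in KO, 97.3, 92.1 and 98.8 CPM in ACT, and 246, 238 and 237 CPM in QS. Its cultured groups lay close together, well below QS. ACT held 40.0% of the QS level (log2 fold change -1.31, SE 0.0461, adjusted p = 4.48e-12). KO was 1.22-fold above ACT (0.29, adjusted p = 9.00e-05) and LAC at 118% of ACT (0.23, adjusted p = 7.23e-04), and LAC against KO was -0.05 with an SE of 0.0461 (adjusted p = 0.387). KO held 49.0% of the QS level (-1.02, adjusted p = 9.19e-11). The Rxra means too ran QS, KO, LAC, ACT from high to low. The endothelial sum and, with Nes, the quiescent stellate sum did so as well, and their part was not tested.

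Rara, which encodes RARα (chromosome 11, 98927818 to 98974942, plus strand), was highest in QS and did not pass the test between any of the cultured groups. Its level was 14.5, 21.8 and 15.7 CPM in LAC, 24.8, 26.2 and 18.5 CPM in KO, 18.7, 22.8 and 18.5 CPM in ACT, and 34.0, 37.0 and 28.9 CPM in QS. QS was highest without overlap, and the cultured groups overlapped with each other. The means ran QS, KO, ACT, LAC from high to low, the order of the hepatocyte marker sum, whose part was not tested. ACT held 60.1% of the QS level (log2 fold change -0.71, SE 0.161, adjusted p = 0.00128) and KO 69.6% (-0.51, adjusted p = 0.0111, and 0.0590 without KO replicate 3). KO against ACT (0.19, adjusted p = 0.315) and LAC against ACT (-0.21, adjusted p = 0.313) did not pass the test. LAC against KO was -0.40 (adjusted p = 0.0621) and was called without KO replicate 3 (0.0170) or LAC replicate 2 (0.0123). An exact two-sided permutation test of 3 against 3 libraries cannot go below p = 0.10, which it gave for every comparison of the 9 genes whose groups did not overlap.

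Compared per kilobase of the longest coding transcript, the leading RAR gene differed between QS and the cultured groups. Rarb made up 70.9%, 71.5% and 70.3% of the summed level of the 3 RAR genes in LAC, 56.6%, 59.1% and 58.2% in KO, 61.6%, 60.4% and 62.5% in ACT, and 23.7%, 26.1% and 28.4% in QS. Rarg held 20.9% ± 2.54 in LAC, 29.3% ± 2.86 in KO, 24.0% ± 0.829 in ACT and 56.4% ± 2.30 in QS (SD, n = 3 each). Rarg thus led in QS and Rarb in the 3 cultured groups. The summed level per kilobase of the 3 genes was 63.2 ± 1.88 CPM in LAC, 53.9 ± 2.33 CPM in KO, 40.7 ± 0.710 CPM in ACT and 56.0 ± 1.97 CPM in QS. The mean share of Rarb differed by more than the spread between libraries in all 5 comparisons, each with an exact two-sided permutation p = 0.10, the smallest possible. With the length of all exons joined in place of the longest transcript, the mean Rarb share was 66.8%, 53.1%, 56.6% and 22.6% in LAC, KO, ACT and QS. Aldh1a2 reached 6.90% ± 0.319 of the summed Aldh1a1 and Aldh1a2 level per kilobase in LAC, 1.62% ± 0.148 in KO, 15.5% ± 0.894 in ACT and 0.165% ± 0.143 in QS, and 27.7% in ACT by joined exons.

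**Figure D3:**
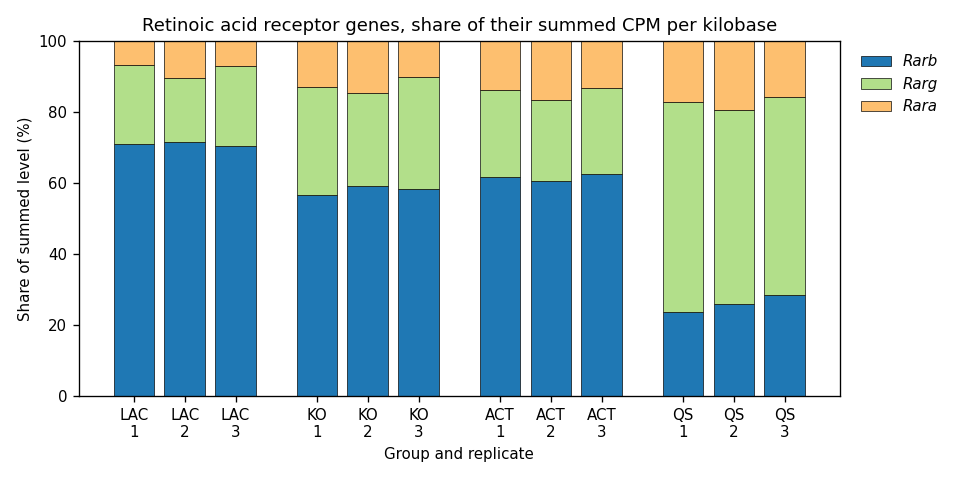
Share (%) of Rarb, Rarg and Rara in their summed CPM per kilobase of longest coding transcript, for each library. Rarb held 70.3% to 71.5% in LAC, 56.6% to 59.1% in KO, 60.4% to 62.5% in ACT and 23.7% to 28.4% in QS.

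Of 9 listed genes that bind or break down retinoic acid 5 were measured. In ACT against QS 4 rose and 1 fell, in KO against ACT 3 rose and 2 fell, in LAC against KO and in LAC against ACT 2 rose and 2 fell, and in KO against QS 3 rose and 1 fell. Their median log2 fold changes were 1.05, 0.56, -0.33, -0.03 and 1.63 in that order, beside 0.03, 0.07, -0.02, 0.03 and 0.02 for all genes, of which 73.5%, 62.4%, 41.0%, 49.5% and 73.0% were called. Cyp26b1, which encodes a retinoic acid hydroxylase, was 628, 611 and 607 CPM in LAC, 1076, 1053 and 1006 CPM in KO, 74.5, 72.4 and 75.4 CPM in ACT, and 345, 337 and 329 CPM in QS. It was lowest in ACT and rose 14.1-fold in KO against ACT (log2 fold change 3.80, SE 0.0346, adjusted p = 6.22e-18), to 3.10-fold the QS level (1.63, adjusted p = 2.90e-14). LAC held 58.9% of the KO level (-0.76, adjusted p = 5.87e-10) and was 8.31-fold above ACT (3.04, adjusted p = 3.02e-16). Endothelial markers moved the same way among the cultured groups, with 21 of 22 higher in KO against ACT (median log2 fold change 4.20), 20 lower in LAC against KO and 21 higher in LAC against ACT, but their sum, unlike Cyp26b1, was highest in QS. Eng, the endothelial gene of endoglin, averaged 1102 CPM in LAC, 1887 CPM in KO, 209 CPM in ACT and 1206 CPM in QS. Ptprb and Cdh5, also among the 3 highest endothelial markers, were highest in QS. Their means were 720 and 769 CPM in LAC, 1294 and 1356 CPM in KO, 66.4 and 70.9 CPM in ACT, and 3384 and 2189 CPM in QS. The part of endothelial cells in the level of Cyp26b1 was not tested. Cyp26a1, the other gene with a DR5 match, was low: 6.04, 6.65 and 5.40 CPM in LAC, 9.74, 10.1 and 8.97 CPM in KO, 6.79, 7.11 and 4.81 CPM in ACT, and 1.96, 1.44 and 0.835 CPM in QS. It rose 4.41-fold in ACT against QS (1.60, adjusted p = 4.47e-06), was higher in KO than in ACT (0.56, adjusted p = 0.0224) and lower in LAC than in KO (-0.59, adjusted p = 0.0265), so it went against Rarb in the lactate comparison. Crabp1, a cytoplasmic carrier of retinoic acid, averaged 6.61 ± 1.65 CPM in LAC, 8.42 ± 1.03 CPM in KO and 1.07 ± 0.0712 CPM in ACT and was listed at 0 in all QS libraries.

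**Figure D4:**
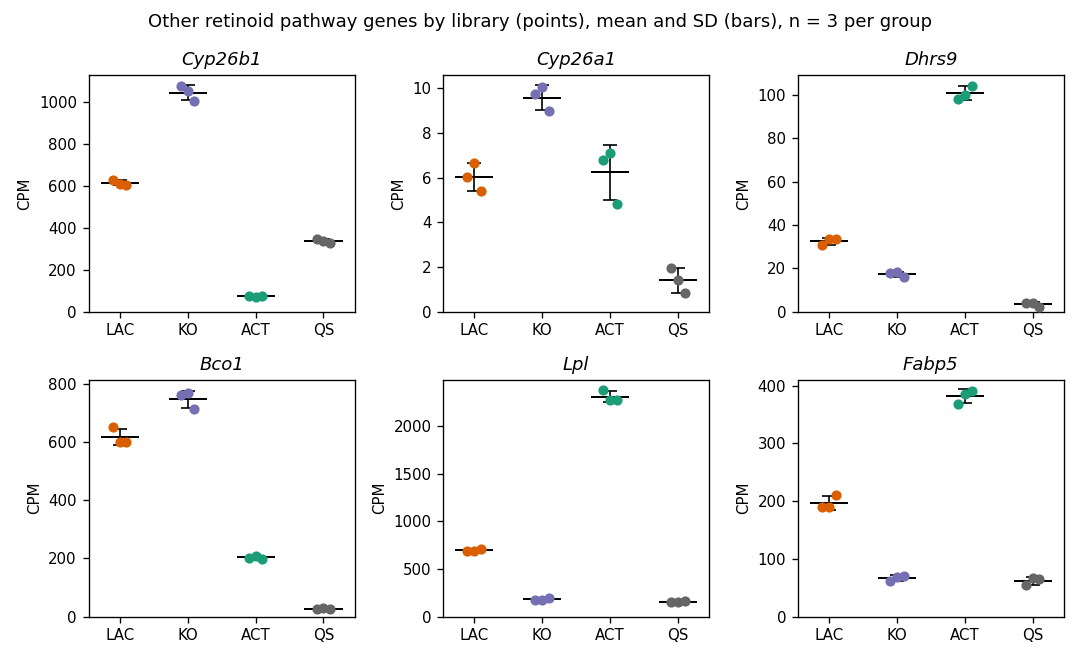
Level (CPM) of other retinoid pathway genes in every library, by group. Points are libraries and bars the mean and SD of 3 libraries. Cyp26b1 was lowest in ACT (72.4 to 75.4 CPM) and highest in KO (1006 to 1076 CPM), while Lpl and Fabp5 were highest in ACT.

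Uptake, storage and ester hydrolysis genes went both ways in each comparison. Of 30 listed genes 18 were measured, with 8 higher and 7 lower in ACT against QS, 8 and 6 in KO against ACT, 7 and 10 in LAC against KO, 6 and 9 in LAC against ACT, and 6 and 6 in KO against QS. Their median log2 fold changes were 0.45, 0.26, -0.26, -0.28 and 0.02 in the same order, beside the medians of all genes given above. Of all genes 73.5%, 62.4%, 41.0%, 49.5% and 73.0% were called. Bco1, which encodes the enzyme that cleaves beta-carotene to retinal, averaged 617 ± 28.7 CPM in LAC, 748 ± 29.2 CPM in KO, 203 ± 4.58 CPM in ACT and 26.8 ± 3.19 CPM in QS, and KO was 27.9-fold above QS (log2 fold change 4.76, adjusted p = 4.84e-16). Lpl, lipoprotein lipase, had 693 ± 12.3 CPM in LAC, 179.6 ± 9.17 CPM in KO, 2307 ± 58.9 CPM in ACT and 157 ± 2.57 CPM in QS (KO against ACT -3.68, adjusted p = 1.58e-17). Stra6l, which encodes a receptor for retinol-binding protein, averaged 6.63 ± 0.975 CPM in LAC, 0.238 ± 0.142 CPM in KO, 11.8 ± 0.797 CPM in ACT and 3.47 ± 1.59 CPM in QS (KO against ACT -3.37, adjusted p = 1.05e-08). Its KO values, 0.141, 0.401 and 0.174 CPM, lay under the level of 3 reads in those libraries (0.252, 0.494 and 0.427 CPM). The size of that fall is therefore limited by depth. Lipa and Plin2, genes of a lysosomal lipase and a lipid droplet coat protein, had the order ACT, LAC, KO in common with Lpl, with mean levels of 576, 256, 1445 and 393 CPM for Lipa and 481, 309, 1243 and 597 CPM for Plin2 in LAC, KO, ACT and QS. Macrophage, activated stellate and portal fibroblast sums had that order too, and 18 of 20 macrophage markers fell in KO against ACT and 16 rose in LAC against KO. Their part in these levels was not tested.

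The 16 measured of 26 further retinol and retinal dehydrogenase genes included 5 that rose and 8 that fell in ACT against QS, 6 and 5 in KO against ACT, 2 and 6 in LAC against KO, 1 and 3 in LAC against ACT, and 6 and 8 in KO against QS. Of all genes 73.5%, 62.4%, 41.0%, 49.5% and 73.0% were called in these comparisons. The medians of the list were -0.15, 0.14, -0.23, -0.07 and -0.41, beside 0.03, 0.07, -0.02, 0.03 and 0.02 for all genes. Dhrs9, a retinol dehydrogenase gene, averaged 32.5 ± 1.69 CPM in LAC, 17.3 ± 1.19 CPM in KO, 101 ± 3.19 CPM in ACT and 3.50 ± 0.954 CPM in QS, with a log2 fold change of 4.52 in ACT against QS (adjusted p = 6.10e-13). Adh1, an alcohol dehydrogenase gene abundant in hepatocytes, was listed at 0 in all LAC libraries and averaged 11.1 ± 4.27 CPM in KO, 0.0548 ± 0.0949 CPM in ACT and 49.8 ± 7.14 CPM in QS, moving with the hepatocyte markers. Fabp5, counted among the binding proteins because it carries fatty acids and retinoic acid, was 196 ± 11.9 CPM in LAC, 66.6 ± 4.84 CPM in KO, 382 ± 11.8 CPM in ACT and 61.9 ± 6.69 CPM in QS (ACT against QS 2.61, adjusted p = 5.00e-13).

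Of 11 measured genes of other RXR isotypes and partner receptors 2 rose and 7 fell in ACT against QS (median log2 fold change -0.81, beside 0.03 for all genes, of which 38.0% rose and 35.5% fell). In KO against ACT 5 rose and 4 fell, in LAC against KO 0 rose and 4 fell, in LAC against ACT 4 rose and 3 fell, and in KO against QS 2 rose and 6 fell. Of all genes 62.4%, 41.0%, 49.5% and 73.0% were called in these last comparisons. Nr1h4, the bile acid receptor gene FXR, averaged 11.0 ± 1.44 CPM in LAC, 16.3 ± 0.575 CPM in KO, 4.75 ± 0.359 CPM in ACT and 68.9 ± 4.87 CPM in QS, and Thra, a thyroid hormone receptor gene, 14.9 ± 0.911, 20.9 ± 0.487, 13.5 ± 0.938 and 49.0 ± 2.28 CPM in that order. Both had the group order of the endothelial sum and, with Nes, of the quiescent stellate sum, whose part was not tested. Vdr, the vitamin D receptor gene, was highest in ACT, with 6.34 ± 1.56 CPM in LAC, 4.91 ± 1.43 CPM in KO, 18.7 ± 1.99 CPM in ACT and 1.72 ± 0.767 CPM in QS. Of 15 coregulator genes 5 rose and 10 fell in ACT against QS, 1 rose and 5 fell in KO against ACT, 4 and 2 in LAC against KO, 2 and 6 in LAC against ACT, and 2 and 11 in KO against QS. Beside these stand 73.5%, 62.4%, 41.0%, 49.5% and 73.0% of all genes called in the same comparisons. Ncoa3, a coactivator gene, had 104 ± 4.07 CPM in LAC, 118 ± 4.27 CPM in KO, 119 ± 9.40 CPM in ACT and 368 ± 6.10 CPM in QS (ACT against QS -1.63, adjusted p = 2.11e-12). Nrip1, a corepressor gene, rose in LAC against KO (0.47, adjusted p = 2.88e-05) and against ACT (0.54, adjusted p = 4.38e-06).

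Genes known to be induced by retinoic acid went both ways in each comparison. Of 22 measured of 29 listed, 8 rose and 10 fell in ACT against QS, 11 rose and 5 fell in KO against ACT, 6 rose and 9 fell in LAC against KO, 11 rose and 3 fell in LAC against ACT, and 8 rose and 10 fell in KO against QS. Of all genes 73.5%, 62.4%, 41.0%, 49.5% and 73.0% were called, so the counts only describe the list. The medians of the list were -0.20, 0.27, 0.09, 0.26 and -0.21, beside 0.03, 0.07, -0.02, 0.03 and 0.02 for all genes. Cyp26b1 and Meis2, a homeobox gene, had the largest rises of the list in KO against ACT among genes of at least 5 CPM and both fell in LAC against KO. Meis2 averaged 78.2 ± 1.76 CPM in LAC, 141 ± 4.30 CPM in KO, 45.7 ± 2.48 CPM in ACT and 199.4 ± 3.82 CPM in QS (KO against ACT 1.61, adjusted p = 1.11e-12, and LAC against KO -0.85, adjusted p = 5.15e-09). The Meis2 means ran QS, KO, LAC, ACT from high to low. That was the order of the endothelial sum and, with Nes, of the quiescent stellate sum, and the part of those cells was not tested. Bhlhe40, a transcription factor gene, went the other way, with 61.5 ± 1.99 CPM in LAC, 40.1 ± 0.915 CPM in KO, 127 ± 4.75 CPM in ACT and 57.5 ± 2.74 CPM in QS. Across the lists, 6 genes were entered in 2 of them, Nrip1, Cyp26a1 and Cyp26b1 among these.

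The genes whose profile over the 12 libraries was closest to each member were found by the root mean square distance between log2(CPM + 1) profiles centred on their own means. Rarb was nearest to Dpysl3 (distance 0.05), Mylk (0.07) and Pi4k2b (0.10), of which Mylk encodes myosin light chain kinase. Aldh1a2 was nearest to Anpep (0.30), Glipr1 (0.31) and Col1a2 (0.32), the last a chain of type I collagen. Rbp4 was nearest to Tdo2 (0.13), Mup15 (0.18) and Ces1c (0.21), genes of hepatocytes, of which Mup15 belongs to a family of near-identical copies. Lrat was nearest to Tgtp2 (0.32) and Btnl9 (0.32). Dhrs3 lay nearest to Igfbp3 (0.07), Cyfip1 (0.07) and Gltp (0.08), and Aldh1a1 to Edem1 (0.08), Ttyh2 (0.09) and Ywhag (0.09). Rarg lay nearest to Zfp36l1 (0.11), Ctdspl (0.11) and Rnf157 (0.12), Rxra to Lrch3 (0.07), Stat5b (0.08) and Zscan26 (0.08), and Rara to Slc25a38 (0.14) and Pcnx (0.14). Among the members themselves Rarg and Rxra were the closest pair (0.21), followed by Rara and Rxra (0.30). These distances follow the 4 group means and describe these libraries only.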

How the data were processed

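The deposited table holds, for 12081 genes and 12 libraries, read counts that the authors normalised to library size (CPM). It was treated as a signal because deposited column totals of 959233 to 1047040.0 show a further scaling factor per library. The build mm10 and the tools kallisto 0.44.0, edgeR 3.8, cutadapt 1.18 and FastQC 0.11.8 are named, per the submitters' processing notes, with no role given. Per the labels' protocols, libraries were made with a stranded poly(A) kit. Every gene reached 1 CPM in at least 3 libraries. Values within 0.01 of a whole read made up 19.6% to 25.6% of a library, so counts were not recovered and no count test was run. Read depth was estimated from repeated low values. Replicate libraries varied beyond counting error (mean chi-square per gene 2.17 to 7.72).

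Limma 3.58.1 in R 4.3.3 was fitted on log2(CPM + 1), which understates changes of low genes. The fit had 4 group means over all 12 libraries and a trended moderation. It was checked on simulated libraries of equal depth with few changed genes. The libraries here differed in depth and in most comparisons had many called genes, so the check does not cover their setting. P-values were adjusted by Benjamini-Hochberg over all genes in each of 5 comparisons and called under 0.05. Genes named beside the members were up to 4 called genes per list and comparison with the largest change and at least 5 CPM, the 3 highest of each marker list, and the 3 nearest profiles; exceptions are stated, and a few genes so chosen are not reported here. Members, lists and tests were chosen with earlier results of these data known. Coordinates came from GENCODE M21 (mm10) and promoters from RefSeq (GRCm38.p6), which matched all 9 genes. Replicate numbers were not used to pair libraries. Alternatives were other pseudocounts, filter, scalings, moderation, threshold, a replicate block and leaving out each library.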

Additional observations from a re-analysis of the deposited data

How the results depend on the processing

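All 45 log2 fold changes (9 genes in 5 comparisons) kept their sign in the 22 alternatives. Of 38 called, 36 were called in each alternative; the exceptions were Dhrs3 in LAC against KO and Rara in KO against QS. Of 7 not called, 5 stayed so in each; Rara and Rarg in LAC against KO were the exceptions. The number of genes lower in LAC against KO, 1 as reported, was 2 with quantile normalization, and 1 to 2 when leaving out a library (2 without KO replicate 2, KO replicate 3, LAC replicate 2 or LAC replicate 3). With the replicate number as a block it was 3, Rara (adjusted p = 0.0119) and Rarg (0.0274) being added. Over all genes with a mean of at least 5 CPM, same-numbered libraries did not deviate together (correlations of -0.0353 to 0.0999), so the numbers were not taken to pair them. These 2 genes did vary with the number. Rara was highest in replicate 2 of all 4 groups, and Rarg was lowest in replicate 2 of LAC, KO and ACT. Leaving out a library gave 3 to 4 genes higher in LAC against KO and 5 to 6 lower in KO against QS, and the other 7 counts of higher or lower members did not move. The cause of these shifts was not tested. An equal total per library moved the median of all genes in KO against QS from 0.02 to 0.12, less than any member's change there. Aldh1a2 in QS (0 to 2 reads) and Rbp4 in LAC (4 reads) are limited by depth, as is Stra6l of the uptake list in KO (under 3 reads).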
